A study of Mus musculus with 8 samples.

Results

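The perinuclear theca is the rigid protein layer between the acrosome, the nucleus and the plasma membrane of the sperm head. Its rear part, the calyx, is built from basic proteins such as the cylicins and calicin, and its front part carries actin-like proteins that anchor the acrosome to the nucleus. Capping protein, a heterodimer of an alpha and a beta subunit, closes the barbed ends of actin filaments and has a testis form of the alpha subunit. In all, 10 genes of these structures were read in testis of mice whose genotype is given as C57BL/6J. Levels are FPKM (fragments per kilobase of transcript, with a scaling between libraries that is not stated). The genes are the actin-like genes Actl7a, Actl7b, Actl9, Actrt1 and Actrt2, the capping protein genes Capza3, Capza1 and Capzb, and the cylicin genes Cylc1 and Cylc2. They were chosen by symbol, and all 10 were found among the 23983 genes of the deposited table.

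The RNA was taken from a piece of testis at d12, d16 or d24 of age or in the adult, whose age is not stated, and the labels name no treatment. Each stage is 1 RNA library, so the spread among animals is unknown and nothing was tested. In the first wave of spermatogenesis germ cells enter meiosis in the second week after birth and become haploid spermatids later, so that the age of a juvenile testis limits which germ cells it can hold. Intervals in parentheses are exact 95% Poisson intervals on the fragments behind a value, or exact 95% Clopper-Pearson intervals of a ratio, and cover counting error only. In bulk tissue, more cells of a type and more RNA per cell cannot be told apart. The H3K27Ac samples of the same stages are not analysed here.

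The labels of the stages were set against marker genes. The 6 markers of pachytene spermatocytes summed to 59.7 FPKM at d12, 976.4 at d16, 4270 at d24, then 5365 in the adult. The 6 markers of round spermatids summed to 1.17, 1.32, 302.1 and 825.5 FPKM in this order, and 4 of them were listed at 0 at d16. The 6 markers of elongating spermatids summed to 13.2, 4.45, 2363 and 26392 FPKM. The 6 markers of Sertoli cells, the somatic nurse cells, had 878.0 FPKM at d12 and 516.0 in the adult, of which Clu alone had 706.7 and 456.6. Those of spermatogonia had 289.0 and 62.1, and those of Leydig cells lay at 131.6 and 580.7. Some markers went against their sums. From d12 to the adult, Gfra1 of the spermatogonia went from 1.20 to 2.41 FPKM and Star of the Leydig cells from 18.8 to 15.1. From d24 to the adult, the pachytene markers Piwil1 (193.5 to 158) and Ccna1 (52.7 to 50.9) were lower. Between 8903138 (d12) and 23669879 (d24) fragments fell on genes, and a transcript of 1 kb could be seen from 3 fragments on, which is 0.240 FPKM at d12 and at d16, 0.137 at d24 and 0.337 in the adult.

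The genes differ in structure. Actl7a, Actl7b, Actl9, Actrt1, Actrt2 and Capza3 have a single exon, which is 6 of the 10 members, and the other 4 have introns. On chromosome 4 lie 5 members, and 2, Actrt1 and Cylc1, lie on the X chromosome. Actl7b (GRCm38, chr4:56740005-56741425, minus strand) and Actl7a (chr4:56743422-56744925, plus strand) stand head to head with 1996 bp between them. Capza3 (chr6:140041557-140042837, plus strand) begins 68 bp from Plcz1, which is read from the minus strand and encodes the sperm phospholipase that starts calcium waves in the egg. Actl9 lies at chr17:33432899-33434268, Actrt1 at chrX:46329007-46330345, Actrt2 at chr4:154666428-154667867, Cylc1 at chrX:111110418-111125854 and Cylc2 at chr4:51216653-51250625. Capza1 lies at chr3:104822781-104864505 (minus strand) and Capzb at chr4:139192899-139291820. No other coding or long noncoding gene of the annotation overlaps any of the 10 members.

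The start-proximal sequence was read from the RefSeq promoter windows (GRCm38.p6), which are held for 6 of the 8 members known mainly from testis. Capza3 and Cylc2 have no window there. The 100 bases before each start are shown 5′ to 3′ on the strand of the gene because 4 of them hold the same 8-letter element. Capitals mark matches, on either strand, to TGATGTCA, whose reverse complement is TGACATCA, or to GTTGCC, whose reverse complement is GGCAAC. The stretches are chr4:56741426-56741525 (minus strand) for Actl7b, chr4:56743322-56743421 (plus) for Actl7a, chr17:33432799-33432898 (plus) for Actl9, chrX:111110318-111110417 (plus) for Cylc1, chrX:46328907-46329006 (plus) for Actrt1 and chr4:154667868-154667967 (minus) for Actrt2.
Actl7b: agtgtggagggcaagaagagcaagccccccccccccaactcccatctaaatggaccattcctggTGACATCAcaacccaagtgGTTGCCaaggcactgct
Actl7a: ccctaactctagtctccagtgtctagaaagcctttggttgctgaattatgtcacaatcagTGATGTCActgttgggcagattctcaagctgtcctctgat
Actl9: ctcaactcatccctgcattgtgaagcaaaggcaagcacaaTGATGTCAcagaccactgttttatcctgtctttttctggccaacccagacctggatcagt
Cylc1: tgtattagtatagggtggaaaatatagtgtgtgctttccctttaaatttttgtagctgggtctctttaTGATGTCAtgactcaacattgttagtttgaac
Actrt1: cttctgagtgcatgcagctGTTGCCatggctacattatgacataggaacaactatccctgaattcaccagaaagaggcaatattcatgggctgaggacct
Actrt2: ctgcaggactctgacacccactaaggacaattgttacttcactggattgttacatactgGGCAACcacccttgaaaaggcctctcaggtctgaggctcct

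The octamer TGATGTCA differs by a single base from TGACGTCA, the palindromic cAMP response element bound by CREM and its relatives. It stands 32 bases before the start in Cylc1, 36 in Actl7b, 40 in Actl7a and 60 in Actl9, counted to its first base, and so in 4 of 6 windows. Of these 4 genes, Actl7a and Cylc1 first reached 2 FPKM at d24, and Actl7b and Actl9 at d16. Actrt1 and Actrt2, whose windows lack it, first reached 2 FPKM at d24. The octamer was picked out after these sequences had been read. Of all 27025 promoter windows of 300 bases (250 before to 50 after the start), 3.76% hold it. Among the genes of the expression table with a window it was found in 2.8% of 16793, in 4.18% of 598 genes first reaching 2 FPKM at d16, and in 11.3% of 1083 genes first reaching 2 FPKM at d24 (11.1% of 1079 without the members). The perfect element TGACGTCA (1.88% of all windows) and its shorter core TGACG (21%), which is part of it, are in none of the 6. The letters TATAAA (14.2%) occur in 1 of the 6, Actl9. GTTGCC (12.7%), part of the sequence bound by RFX factors, occurs in 3, Actl7b, Actrt1 and Actrt2. A match is a description of the letters and says nothing of binding.

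Actl7b encodes an actin-like protein needed for the shaping of spermatids, and it was the most abundant member at d24 and in the adult, while Capza1 and Capzb were higher at d12 and d16. It had 0.899 FPKM at d12 (0.514 to 1.46, 16 fragments), 19.5 at d16 (17.5 to 21.7, 347 fragments), 459.7 at d24 (452.2 to 467.3) and 1017 in the adult (999.2 to 1034). It ranked 114 of all genes at d24 and 51 in the adult, counted from the highest. The d16 value was 21.7 times that of d12 (13.2 to 38.4), and the d24 value was 23.5 times that of d16 (21.1 to 26.2). Together the 5 actin-like members summed to 1.40 FPKM at d12, 23.8 at d16, 629.4 at d24, then 1576 in the adult, and Actl7b alone held 81.9% of this sum at d16, 73.0% at d24 and 64.5% in the adult. Against Actb, the cytoplasmic beta actin of all cells, the sum was 0.00402 times as high at d12, 2.81 times at d24 and 6.40 times in the adult.

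Actl9, whose protein sits in the theca and is needed for the egg-activating factor to be placed correctly, had the same order of stages at a lower level. Its values were 0.233 FPKM at d12 (0.0636 to 0.597, 4 fragments), 4.09 at d16 (3.19 to 5.17, 70 fragments), 78.1 at d24 (74.97 to 81.3) and 243.1 in the adult (234.5 to 252.0). Actl9 was 17.5 times higher at d16 than at d12 (6.55 to 66.1) and 19.1 times higher at d24 than at d16 (15.1 to 24.6). Actl7b and Actl9 were the only members that first reached 2 FPKM at d16, 2 of 10, while 3.55% of all 23983 genes did so. From d12 to d16, 6 of 6 pachytene markers and 1 of 6 round spermatid markers were at least 2-fold higher (12.6% of all genes). The part of either cell type in the d16 values of Actl7b and Actl9 was not tested.

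Actl7a, the head-to-head neighbour of Actl7b, encodes a protein that holds the acrosome on the nucleus. Its level was 0.159 FPKM at d12 (0.0328 to 0.465, 3 fragments), 0.106 at d16 (0.0129 to 0.384, 2 fragments), 51.7 at d24 (49.3 to 54.2) and 153.1 in the adult (146.5 to 159.8). At d16, when Actl7b already had 347 fragments, Actl7a was near the limit of detection, and the FPKM ratio of Actl7b to Actl7a was 183.6 (50.5 to 1522). The ratio was 8.89 at d24 (8.45 to 9.35) and 6.64 in the adult (6.34 to 6.96). Both windows hold the octamer.

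Actrt1 and Actrt2 encode actin-related proteins of the theca, and Actrt1 is X-linked. Actrt1 had no fragment at d12 or d16, where 3 fragments would be 0.179 FPKM, then 5.34 FPKM at d24 (4.53 to 6.24, 157 fragments) and 15.0 in the adult (12.9 to 17.4, 179 fragments). Its d24 value was at least 29.8-fold higher than the d16 limit, and it was the lowest member at d24 and in the adult. Actrt2 had 0.111 FPKM at d12 and at d16, from 2 fragments each, 34.5 at d24 (32.5 to 36.6) and 148.4 in the adult (141.8 to 155.3). From d24 to the adult Actrt2 was 4.3 times higher (3.99 to 4.64), the largest such ratio of the 10 members, and Actrt1 was 2.81 times higher (2.25 to 3.50).

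The cylicins are lysine-rich proteins of the calyx, and both genes appeared between d16 and d24. The X-linked Cylc1 had no fragment at d12, 1 fragment at d16 (0.0408 FPKM, 0.00103 to 0.227), 33.9 FPKM at d24 (32.2 to 35.7) and 124.2 in the adult (119.0 to 129.5). Cylc2, on chromosome 4, had 1 fragment at d12 and at d16 (0.0616 and 0.0617 FPKM), 78.4 FPKM at d24 (75.2 to 81.7) and 239.2 in the adult (230.3 to 248.2). Thus the 1 fragment at d16 stood against 1465 at d24 for Cylc1 and against 2232 for Cylc2. Cylc2 exceeded Cylc1 by 2.31 times at d24 (2.16 to 2.47) and by 1.93 times in the adult (1.82 to 2.04). This ratio is taken within a library and does not depend on the scaling between libraries.

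**Figure D1:**
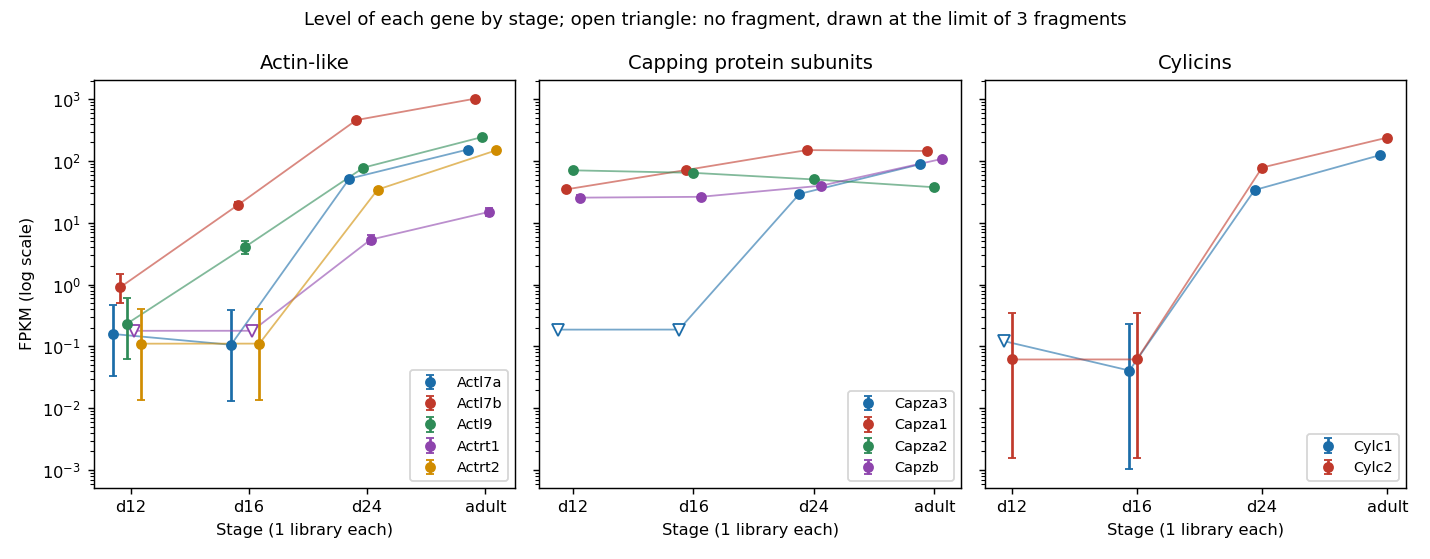
FPKM on a log scale against stage for the 5 actin-like genes, the capping protein genes with Capza2, and both cylicins. Points are single libraries, bars are exact 95% Poisson intervals, and open triangles mark genes with no fragment at the limit of 3 fragments. Actl7b and Actl9 stand above the other testis genes at d16, whereas Capza1, Capza2 and Capzb are already high at d12.

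Of the capping protein, the testis alpha subunit Capza3 followed the cylicins, and the general subunits did not. Capza3 had no fragment at d12 or d16, where 3 fragments would be 0.187 FPKM, then 29.3 FPKM at d24 (27.4 to 31.4, 825 fragments) and 88.5 in the adult (83.1 to 94.1). The d24 value was at least 156.4-fold higher than the d16 limit. Plcz1, 68 bp away on the other strand, had 5 fragments at d12 and none at d16, then 49.6 FPKM at d24 and 202.5 in the adult, so it was 1.69 times as high as Capza3 at d24 (1.56 to 1.83) and 2.29 times in the adult (2.14 to 2.46).

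Capza1 encodes the alpha subunit found in most cells. It had 34.7 FPKM at d12 (32.8 to 36.6), 71.5 at d16 (68.9 to 74.3), 150.1 at d24 (147.2 to 153.1) and 145.3 in the adult (140.9 to 149.9). Each of the first 2 steps came to about the same ratio, 2.06 from d12 to d16 (1.93 to 2.21) and 2.1 from d16 to d24 (2.01 to 2.19), and the last was 0.968 (0.933 to 1.00). The Capza1 values are uncertain, because the genome holds intronless near copies of its transcript. The copy at chr1:105455941-105458898, where the annotation has no gene, is 99.6% identical over 92.7% of the transcript. That at chr9:98871091-98873928, annotated as the pseudogene Gm5920, is 97.4% identical over 89.3%. Of the 50-base stretches of Capza1, the length of a read, 81.8% also occur in at least 1 of the copies. The authors kept 1 alignment per pair, so reads of the gene and of the copies could be exchanged. None of the other 9 members has such a copy.

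Capza2, the other general alpha subunit and no member, had 70.7, 64.3, 50.3 and 37.6 FPKM in the order of the stages, while Capza1 was highest at d24. Of the summed alpha subunits, Capza2 made up 67.1% at d12 and 13.9% in the adult, and Capza1 made up 32.9% and 53.5%. Capza3 made up 12.8% at d24 and 32.6% in the adult. Capza3 lay at 0.583 times the level of Capza2 at d24 (0.539 to 0.631) and at 2.35 times in the adult (2.15 to 2.58).

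Capzb encodes the beta subunit that pairs with all of these, and its isoforms are not separated in the table. It had 25.5 FPKM at d12 (23.4 to 27.8), 26.3 at d16 (24.2 to 28.6), 39.8 at d24 (37.8 to 41.9) and 107.9 in the adult (102.7 to 113.2). Its highest step was thus the last, 2.71-fold from d24 to the adult (2.52 to 2.90), against 1.03 from d12 to d16 (0.913 to 1.16) and 1.51 from d16 to d24 (1.37 to 1.67). The alpha subunits summed to 105.3, 135.9, 229.8 and 271.4 FPKM, and their ratio to Capzb was 4.12 at d12, 5.16 at d16, 5.77 at d24, then 2.52 in the adult. Without Capza2 the ratio was 1.36, 2.72, 4.50 and 2.17 in the same order, and so lowest at d12. The near copies of Capza1 bear on these ratios and shares too.

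**Figure D2:**
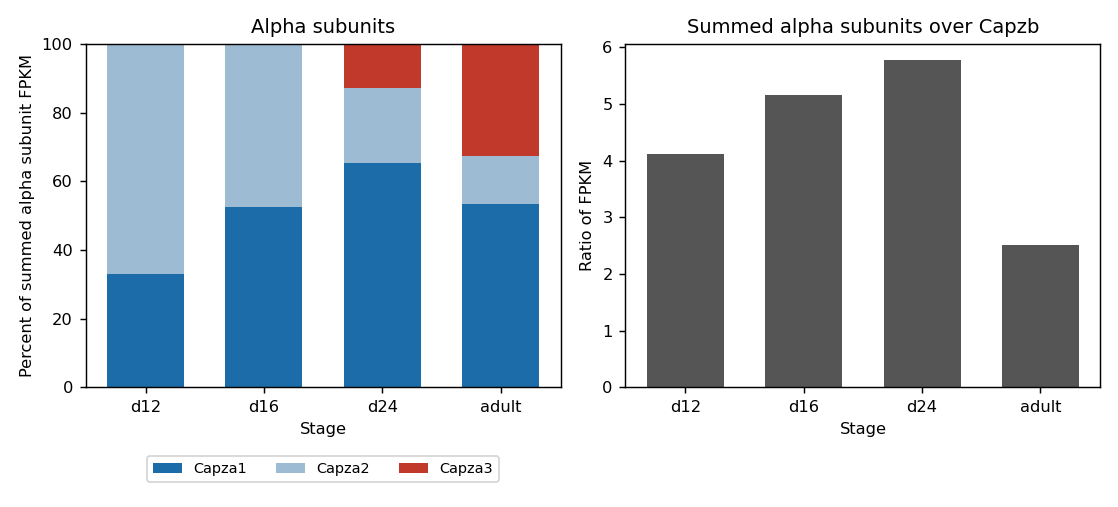
Left, each alpha subunit of capping protein as percent of the summed FPKM of Capza1, Capza2 and Capza3 in the library of each stage. Right, the summed alpha subunits divided by Capzb; Capza3 appears at d24 with 12.8% and reaches 32.6% in the adult, where the ratio to Capzb is lowest at 2.52.

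Steps between stages were counted over the 13901 genes whose mean over the libraries was 1 FPKM or more, which all 10 members reached, as a change of at least 2-fold on log2(FPKM + 0.1). Actl7a, Actrt1, Actrt2, Capza3, Cylc1 and Cylc2 had at most 0.159 FPKM at d12 and d16, and reached this mean only through d24 and the adult. Their calls in the later steps thus rest on the same values as the filter. From d12 to d16, Actl7b, Actl9 and Capza1 were higher, 3 of 10, while 12.6% of genes were. From d16 to d24, all members but Capzb were higher, 9 of 10, against 27.5% of genes. From d24 to the adult, all but Capza1 were higher, 9 of 10, against 11.4% of genes. With libraries scaled to equal FPKM sums, 6 of 10 were, without Actl7b (1.59-fold), Capzb (1.94-fold) and Actrt1 (2.01-fold before 0.1 FPKM is added). The share of all genes was not counted with this scaling, which moved their median log2 change to -0.49. No member was lower in any step, while 3.67%, 8.45% and 2.2% of genes were. From d12, Actrt1, Capza3 and Cylc1 (no fragment) and Cylc2 (0.0616 FPKM) could not fall 2-fold on this scale. Nor could Actrt1 and Capza3 (no fragment), Cylc1 (0.0408 FPKM) and Cylc2 (0.0617 FPKM) from d16. Of the members, 6 (Actl7a, Actrt1, Actrt2, Capza3, Cylc1 and Cylc2) stayed under 2 FPKM at d12 and d16 and reached it at d24, which 6.3% of all 23983 genes did. Members and steps were chosen with earlier results known, so these counts are given beside those of all genes without a test.

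The change from d16 to d24 of the 8 members known mainly from testis ran from 4.22 to 8.92 on the log2(FPKM + 0.1) scale, with a median of 7.64, while the median of all 13901 genes was 0.13. From d24 to the adult it ran from 1.14 to 2.1, with a median of 1.60 against -0.02. Rescaling each library to the same FPKM sum moved the median of all genes to -0.48 in the step to d24 and to -0.49 in the step to the adult, and those of the 8 members to 7.26 and 1.12. For the general subunits the scaling matters: with equal sums Capza1 changed by 0.93 from d12 to d16 and 0.45 from d16 to d24, under the limit of 2-fold in both, and Capzb by -0.02 from d16 to d24 in place of 0.60.

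At d24 each of these 8 genes lay below its adult level, also with equal FPKM sums. The shares given here are of values as deposited and shift with the scaling. The d24 value as a share of the adult value was 45.2% for Actl7b, 35.6% for Actrt1, 33.8% for Actl7a, 33.1% for Capza3, 32.8% for Cylc2, 32.1% for Actl9, 27.3% for Cylc1 and 23.2% for Actrt2, with a median of 33.0%. Over all 1510 genes first reaching 2 FPKM at d24 the median was 44.8% (quartiles 28.5% and 79.4%), and over the 88 X-linked ones 39.7% (quartiles 28.3% and 57.7%). Of the X-linked members, Actrt1 lay between these X-linked quartiles and Cylc1 just under the lower. Actl7b and Actl9 are not among the 1510 genes, as they first reached 2 FPKM at d16. Other theca, actin-like and profilin genes that first reached 2 FPKM at d24 lay from 18.6% to 46.6%. These are Actl11 (18.6%), Actrt3 (19.6%), Wbp2nl (24.4%), Plcz1 (24.5%), Ccin (27.4%), Pfn3 (34.9%) and Actl10 (46.6%).

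**Figure D3:**
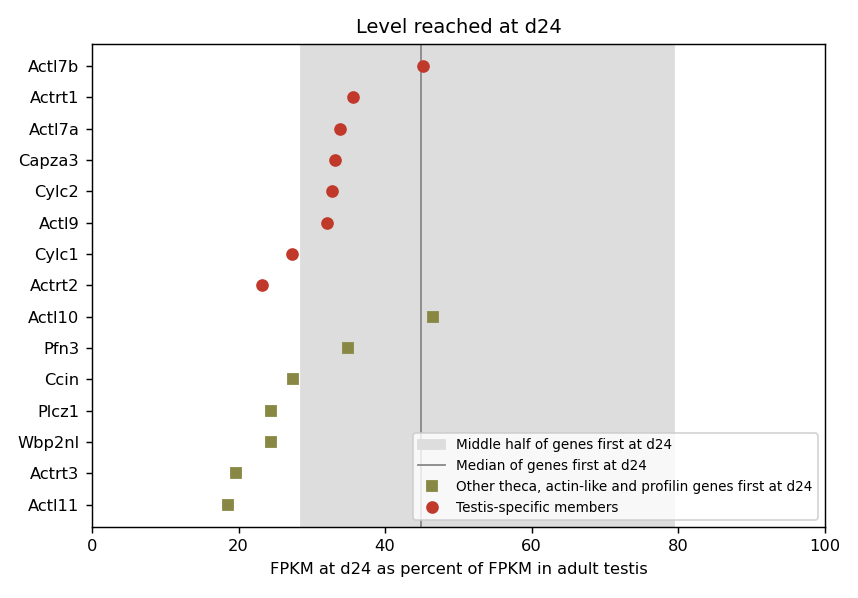
FPKM at d24 as percent of FPKM in the adult. Circles are the 8 testis members and squares are other theca, actin-like and profilin genes that first reached 2 FPKM at d24, with 1 library per stage. The grey band holds the range from the lower to the upper quartile of the 1510 genes first reaching 2 FPKM at d24. The line is their median of 44.8%, and 7 of the 8 circles lie left of it. Actl7b and Actl9 first reached 2 FPKM at d16 and are not among the 1510 genes.

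The order of the levels changed with age. At d24 it ran Actl7b, Capza1, Cylc2, Actl9, Actl7a, Capzb, Actrt2, Cylc1, Capza3 and Actrt1, where Cylc2 and Actl9 (ratio of Actl9 to Cylc2 0.996, 0.940 to 1.06) and also Actrt2 and Cylc1 overlapped in their counting intervals. In adult testis it ran Actl7b, Actl9, Cylc2, Actl7a, Actrt2, Capza1, Cylc1, Capzb, Capza3 and Actrt1. There Actl9 overlapped with Cylc2, and Actl7a, Actrt2 and Capza1 overlapped with their neighbours, with a ratio of Actl7a to Actrt2 of 1.03 (0.969 to 1.1). At d12 the 8 testis members all lay under 1 FPKM, and below Actl7b, the highest of them, each interval overlapped with that of the gene above it. The markers of elongating spermatids were themselves higher at d12 (13.2 FPKM) than at d16 (4.45). Their part in the few early fragments of Actl7a, Actl7b, Actl9, Actrt2 and Cylc2 was not tested.

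Other genes of the theca and of the acroplaxome, the actin plate under the acrosome, were read from a list of 9. From d16 to d24 all 9 were at least 2-fold higher (27.5% of all genes), from d12 to d16 5 were (12.6%), and from d24 to the adult 6 were (11.4%). Plcz1 was called lower from d12 to d16 (3.67% of all genes), on 5 fragments against none. It was the only gene of the list called lower in any step. Ccin, which encodes calicin of the calyx, had no fragment at d12, 1 at d16, 18.8 FPKM at d24 and 68.5 in the adult, the same course as the cylicins. Wbp2nl, a theca protein released into the egg, had 0.606, 0.728, 5.42 and 22.2 FPKM. Fabp9, an abundant lipid-binding protein of the theca, was earlier and far higher, with 39.7 FPKM at d12, 994.6 at d16, 2997 at d24, then 6343 in the adult. Dpy19l2, which anchors the acrosome in the nuclear envelope, had 0.255, 13.5, 110.2 and 128.7 FPKM, and Zpbp2, of the acrosomal matrix, had 0.684, 19.9, 283.5 and 339.1. As deposited, their d24 values were 85.6% and 83.6% of the adult ones, which was not counted with other scalings.

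Among 14 further actin-like and actin-related genes, 13 could be counted, and 5 were higher at d24 than at d16, against 27.5% of all genes. Actl10 was lower from d12 to d16 (3.67% of all genes), on 5 fragments against 1, and Actr3b from d24 to the adult (2.2%). Of the 5, 3 are testis genes, Actrt3 with 7.94 FPKM at d24 and 40.5 in the adult, Actl10 with 3.76 and 8.07, and Actl11 with 12.01 and 64.6, all with at most 1 fragment at d16. The others, Actr1a and Actr10, encode parts of dynactin and had 50.4 and 13.2 FPKM at d16 and 139.2 and 34.6 at d24. Actr2 and Actr3, the actin-related subunits of the Arp2/3 complex that starts branched filaments, had 23.1 and 98.8 FPKM at d12 and 23.4 and 37.4 in the adult.

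Of the 6 conventional actins 4 could be counted. Actb had 348.8, 257.4, 224.3 and 246.2 FPKM, and Actg1, the cytoplasmic gamma actin, had 176.3, 216.0, 380.1 and 300.3. Actg2, a smooth muscle gamma actin, had 9.47 FPKM at d12, 5.78 at d16, 46.5 at d24, then 225.0 in the adult. It was the only 1 of the 4 that was higher in either late step (27.5% and 11.4% of all genes), and it was so in both. Acta2, the alpha actin of peritubular cells, went from 112.9 FPKM at d12 to 34.2 in the adult. From d16 (95.1) to d24 (47.3) it was called lower, as were 8.45% of all genes. Of the profilins, which bind actin monomers, Pfn3 had no fragment at d12 or d16, 11.3 FPKM at d24 and 32.3 in the adult, Pfn4 had 2.81, 22.4, 99.4 and 108.3, and Pfn1 stayed between 37.8 and 47.9. Of 8 other capping and actin-severing genes, 0 were 2-fold higher in any step, while 12.6%, 27.5% and 11.4% of all genes were in turn. Capg and Cd2ap were lower from d16 to d24 (8.45% of all genes). Capg was lower again from d24 to the adult (2.2%), at 1.08 and 0.360 FPKM.

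**Figure D4:**
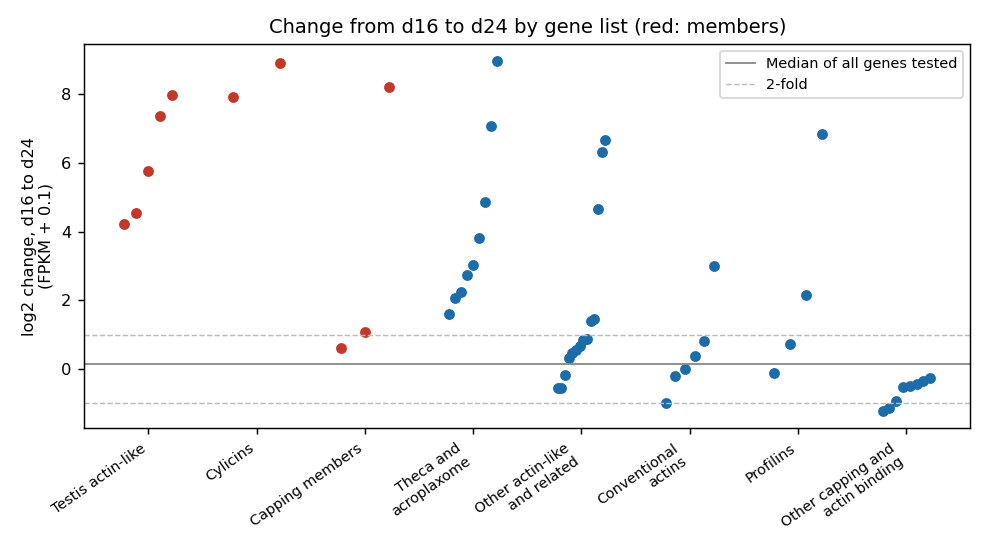
Change from d16 to d24 on the log2(FPKM + 0.1) scale, 1 point per gene, for the members (red) and the other lists (blue); dashed lines mark 2-fold and the solid line the median of all 13901 genes. The 8 testis members lie between 4.22 and 8.92, together with some theca genes, whereas all 8 genes of the list of other capping and actin-severing genes lie below 0.

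Genes with the most similar course were found by the Euclidean distance between log2(FPKM + 0.1) profiles over the 4 libraries, each centred on its own mean, to the median profile of the 8 testis members. Of 7042 other genes with at least 10 FPKM in the adult, the nearest were Kif2b (distance 0.31), 1700084F23Rik (0.35), 4930558C23Rik (0.35), Ccdc185 (0.37) and Theg (0.37), and 142 genes lay within a distance of 1. The members themselves lay at 0.45 for Cylc1, 0.49 for Capza3 and Actrt2, 0.59 for Actl7a and 1.1 for Cylc2, but at 2.24 for Actrt1, 2.95 for Actl9 and 3.15 for Actl7b. Actrt1, like Capza3, had no fragment at d12 or d16, and reached only 15.0 FPKM in the adult. The distance depends on the level too, as the added 0.1 FPKM narrows the range of a low gene. The 4 stages give few points for such a likeness, and it is given as a description.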

How the data were processed

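Total RNA of a testis piece was sequenced as strand-specific, paired-end libraries, 1 per stage. The authors aligned them to GRCm38 (mm10) by TopHat2 2.1.0, running Bowtie 1.1.2 and keeping 1 alignment per pair, and deposited FPKM values made with Cuffdiff of Cufflinks 2.2.1, with corrections for multi-reads and sequence bias. The scaling between libraries is not given in the sources used here. All 4 RNA columns were used. Gene models came from RefSeq GRCm38.p6, the same build.

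Fragment numbers were recovered by dividing each value by that of a single fragment, estimated from 14605 genes with 1 curated transcript. Of low values (up to 20 fragments), 91.8% to 92.5% lay within 0.05 of a whole number. For Capza1 and Capzb, with several curated transcripts of similar length (ratio up to 1.1), their mean length served. The limit for genes without a fragment is 3 fragments. Near copies were searched with blastn 2.17.0 (at least 90% identity over at least 50% of the transcript). Calculations used numpy 2.4.6, scipy 1.17.1 and pandas 2.3.3 in python 3.11.15 and were tested on simulated data. The genes named are the members, the lists of related genes, immediate neighbours and the 5 genes of most similar profile. Members, lists and comparisons were chosen with earlier results of these data known. Alternatives were other scalings, a pseudocount of 1 FPKM, a limit of 4-fold, no filter, thresholds of 1 and 5 FPKM, and other denominators.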

Additional observations from a re-analysis of the deposited data

How the results depend on the processing

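Of 56 alternatives over 27 results, 36 were counted as leaving the result the same and 20 as moving it. Counts had to stay within 1.5 times, and the median ratio of adult to d24 close to its value. Alternatives without Capza2 were all set down as moved, with no limit on the size of the shift. The 36 include the counts of members lower in a step, which were 0 in every setting. The limit of 4-fold left 1 member, Actrt2, higher from d24 to the adult in place of 9. With a threshold of 5 FPKM, 1 member in place of 2 first appeared at d16, since Actl9 then counted for d24. The median ratio of adult to d24 over the 8 testis members was 3.03 as deposited, 2.18 with equal FPKM sums and 2.54 with equal upper quartiles. With equal sums the ratios of the 10 single members were all lower, and 6 of 10 members stayed 2-fold higher. The share of all genes was not counted under the alternatives, so these member counts have no such share beside them. Leaving out Capza2, the Capza3 share of alpha subunits was 16.3% at d24 and 37.9% in the adult, and the ratio to Capzb was 1.36 at d12, 2.72 at d16, 4.50 at d24, then 2.17 in the adult, so that it was then lowest at d12. No paired analysis was possible because each stage has 1 library. Values from 3 or fewer fragments, as for most testis members at d12 and d16, set no order among genes.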
